A study of Mus musculus with 12 samples.

Results

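The receptors described here are 9 G protein-coupled receptors through which incretins, fatty acids and neurotransmitters act on insulin secretion: Glp1r, Gipr, Gcgr, Ffar1, Ffar4, Chrm3, Adra2a, Galr1 and Sstr3. They were chosen by name for their known role in b cells from 21757 protein-coding genes, and each locus is the annotated gene with 10 kb on each side. The choice used no measured value, although earlier results of these data were known when it was made. DNA methylation was measured by tagmentation-based whole genome bisulfite sequencing in sorted b cells of newborn (postnatal day 2, P2) and adult (P60) mice. All mice carried Myt1cCre, Ngn3nCre, Rosa26eYFP and InsApple (MNYI mice), so that the 2 parts of Cre join only in progenitors that express both Myt1 and Ngn3, and Apple marks insulin-expressing cells. The eYFP+ b cells descend from these M+N+ progenitors, and the eYFP- b cells are taken as descendants of M-N+ progenitors, although a cell in which the split Cre failed would also be eYFP-. The sample titles write eGFP for the reporter, and the labels' cell type field speaks of all islet cells where the titles and the methods speak of sorted b cells.

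The read counts are available as 1 pool for each subtype at each stage, 4 pools in all, and 12 single libraries are represented only by the positions of their hypomethylated regions (HMRs), which are runs of CpGs with little methylation in otherwise methylated DNA. The libraries were 2 per subtype at P2 and 4 per subtype at P60, and each combined cells sorted from several mice. Levels of a pool therefore carry a counting error only, given as 95% intervals (Wilson for a level, Newcombe for a difference), and Fisher's tests on them compare pools of reads, not mice. A number in the names of the library files was taken as the sequencing submission. By this number, all P2 libraries came in 1 submission and all P60 libraries in others. Stage and submission therefore cannot be told apart in any comparison below. The pools had means of 24.0 and 24.2 reads per CpG at P2 and 43.7 and 43.4 at P60 (eYFP- first), and the libraries had 57109 to 60950 HMRs at P2 and 38052 to 49939 at P60. Of 253 X-linked HMRs that were in all male and in no female P60 library, the P2 eYFP- library labelled female had 91.7% and the P2 eYFP- library labelled male had 13.4%, which goes against both labels. The 9 receptor genes are autosomal, and the library tests of HMR presence and of locus coverage are also given without either of these. The library tests of covered bases were not repeated without them.

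Insulin secretion is driven by glucose and scaled by receptors of 3 signaling classes. Glp1r, Gipr and Gcgr bind GLP-1, GIP and glucagon and raise cAMP through Gs. Ffar1 and Ffar4 bind long-chain fatty acids, Ffar1 mainly through Gq, and Chrm3 binds acetylcholine from parasympathetic nerves and also acts through Gq and phospholipase C. Adra2a, Galr1 and Sstr3 bind noradrenaline, galanin and somatostatin and act through Gi/o, which lowers cAMP and insulin release. Low methylation at a promoter or enhancer is commonly found where such an element is open or used, but expression was not measured in these libraries.

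The stage comparison turns on a few short stretches of these loci, of which 5 are printed here so that their CpGs, in capitals, can be read beside their levels. All are on mm39, run 5′ to 3′ in the direction of the gene, and are taken from the GRCm39 reference. The first is the DNA just upstream of the Ffar1 start, the next come from intron 1 and intron 3 of Glp1r, where methylation was lower at P60, and the last come from the DNA upstream of Ffar4 and from its intron 2, where methylation was higher at P60.
Ffar1, upstream of the start (chr7:30560990-30561289, minus strand): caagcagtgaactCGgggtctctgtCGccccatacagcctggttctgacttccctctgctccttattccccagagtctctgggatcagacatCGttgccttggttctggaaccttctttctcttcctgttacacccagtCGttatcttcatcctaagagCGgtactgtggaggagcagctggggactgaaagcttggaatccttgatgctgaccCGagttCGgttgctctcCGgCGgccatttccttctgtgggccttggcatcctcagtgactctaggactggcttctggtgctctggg
Glp1r, intron 1 (chr17:31125464-31125763, plus strand): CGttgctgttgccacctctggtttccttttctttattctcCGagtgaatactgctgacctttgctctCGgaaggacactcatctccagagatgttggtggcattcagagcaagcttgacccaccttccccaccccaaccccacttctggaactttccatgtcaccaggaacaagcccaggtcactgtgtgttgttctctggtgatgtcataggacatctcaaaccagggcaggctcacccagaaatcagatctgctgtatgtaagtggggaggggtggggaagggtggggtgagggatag
Glp1r, intron 3 (chr17:31129959-31130120, plus strand): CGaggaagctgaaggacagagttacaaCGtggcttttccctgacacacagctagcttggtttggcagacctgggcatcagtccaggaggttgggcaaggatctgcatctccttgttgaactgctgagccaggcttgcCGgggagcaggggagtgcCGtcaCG
Ffar4, upstream of the start (chr19:38080438-38080737, plus strand): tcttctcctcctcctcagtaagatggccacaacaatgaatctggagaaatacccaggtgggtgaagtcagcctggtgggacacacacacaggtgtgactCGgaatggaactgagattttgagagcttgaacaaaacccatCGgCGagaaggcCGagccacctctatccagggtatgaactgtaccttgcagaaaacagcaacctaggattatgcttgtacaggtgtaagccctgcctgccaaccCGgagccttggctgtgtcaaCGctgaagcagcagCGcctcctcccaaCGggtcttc
Ffar4, intron 2 (chr19:38100835-38101134, plus strand): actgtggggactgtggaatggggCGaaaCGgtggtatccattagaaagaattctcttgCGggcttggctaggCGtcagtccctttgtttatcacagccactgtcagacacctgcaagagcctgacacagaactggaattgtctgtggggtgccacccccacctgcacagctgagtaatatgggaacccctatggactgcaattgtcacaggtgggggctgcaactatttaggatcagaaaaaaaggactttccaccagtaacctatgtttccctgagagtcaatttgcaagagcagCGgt

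HMRs of the 4 pools that overlapped were merged, which gave 49 merged HMRs in the 9 loci out of 87689 in the genome. The single pools had 41 to 43 of them, and the single libraries 33 to 36 at P2 and 26 to 34 at P60. Of the 49, 36 (73.5%) held an HMR of every pool, against 57.2% of all merged HMRs, 25 were overlapped in all 12 libraries and 6 in none. Their median length was 754 bases with 2.61 CpGs per 100 bases, against 536 bases and 2.33 for all merged HMRs. By position, 9 lay at the start of a receptor gene, 19 inside one, 16 between genes and 5 at the start of a neighbouring gene. A merged HMR that comes from pools of 1 stage was by construction low there, and the levels of such regions are read with that in mind. A merged HMR held by pools of both stages takes its edges from the pool in which it reaches furthest. Its outer parts were therefore also chosen by their low level in that pool.

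**Figure D1:**
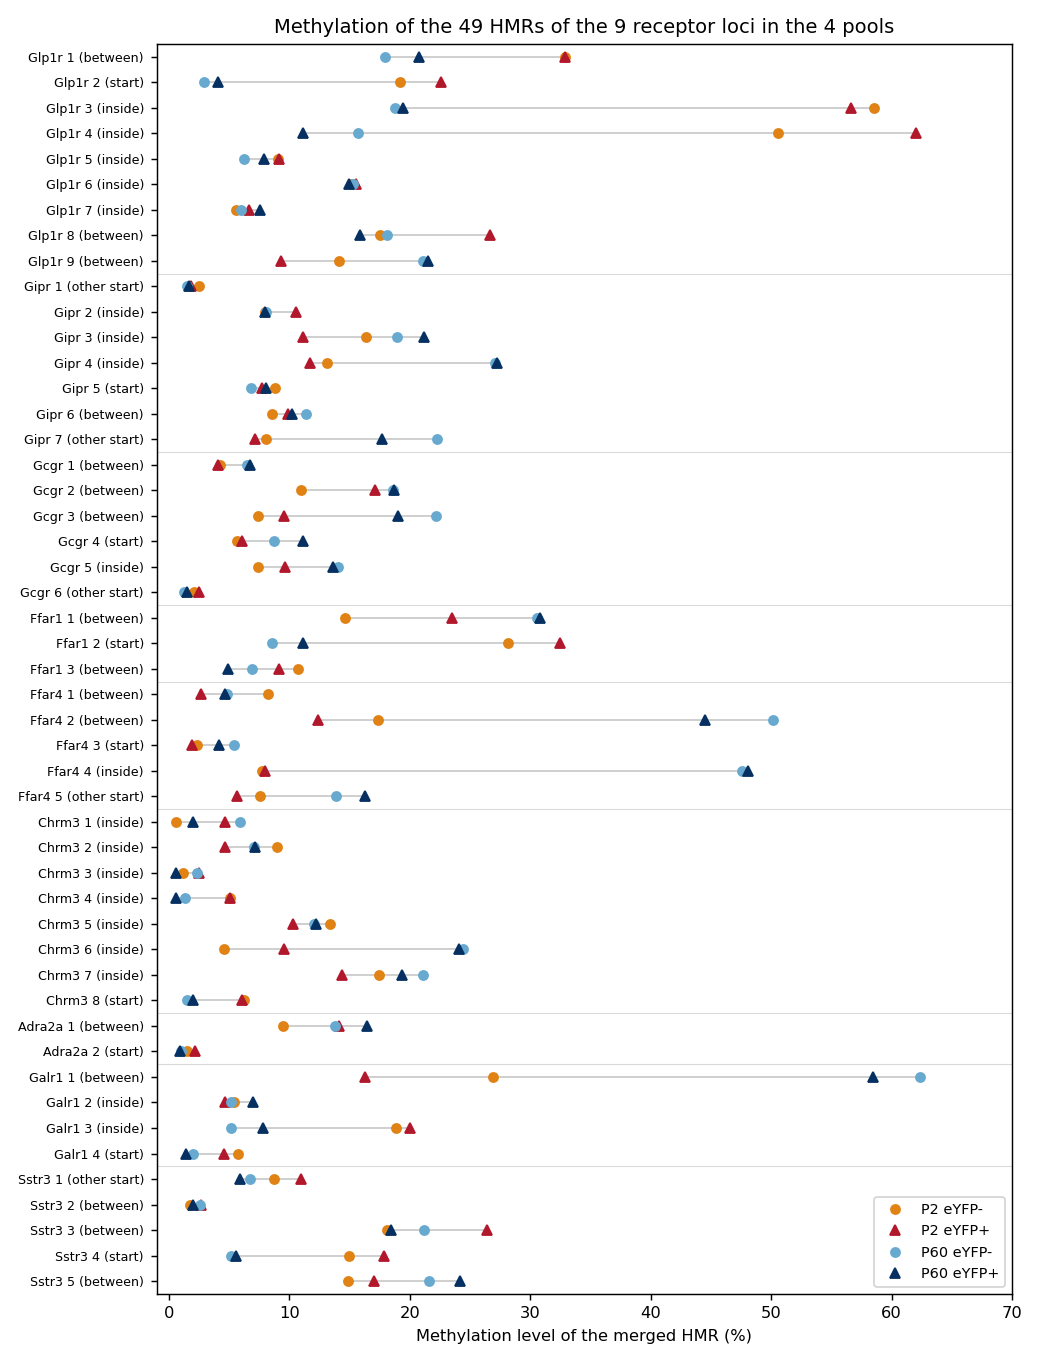
Methylation level, in percent, of each of the 49 merged HMRs in the P2 and P60 pools (circles eYFP-, triangles eYFP+), grouped by receptor and numbered along the chromosome with their position class in brackets. The grey line joins the lowest and the highest pool. The widest spans are in introns of Glp1r, upstream of and inside Ffar4, and downstream of Galr1.

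Methylation of the receptor HMRs moved in both directions between P2 and P60. In eYFP- cells 6 of the 49 were lower and 8 higher at P60, and in eYFP+ cells 8 were lower and 9 higher (Fisher's exact test on summed reads, Benjamini-Hochberg adjusted p below 0.05 over all merged HMRs and a difference of at least 10 percentage points). Over all merged HMRs, 3.16% were called lower and 27.4% higher in eYFP- cells, and 4.09% and 26.1% in eYFP+ cells. The same 6 were lower in both subtypes, and 6 were higher in both. The median stage difference of the receptor HMRs was 0.61 points in eYFP- and 0.41 points in eYFP+ cells, against 2.84 and 2.29 points over all merged HMRs. Summed reads count a fragment that spans several CpGs more than once. Dividing the reads by the number of CpGs treats all CpGs of an HMR as read together, which is strictest for wide HMRs with many CpGs. So divided, 2 lower and 1 higher remained in each subtype, namely the Glp1r introns and Ffar4 intron 2. Over all merged HMRs, 35 lower and 1097 higher of 86551 remained in eYFP- cells, and 49 and 1088 of 86554 in eYFP+ cells. Each of the remaining receptor regions was an HMR in pools of 1 stage only and so was low there by construction.

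Of the 9 HMRs at receptor starts, those of Glp1r and Ffar1 were lower at P60 in both subtypes, that of Sstr3 was lower in eYFP+ cells, and none was higher. The median difference over these 9 was -3.81 points in eYFP- and -3.14 points in eYFP+ cells. Shares and medians for the start HMRs of all genes were not computed, and the shares over all merged HMRs include regions away from starts. Of all tested windows around gene starts, described below, 4.42% and 4.29% were called higher in eYFP- and eYFP+ cells. Called lower were 2.06% and 3.58%. With so few windows higher, the lack of a higher receptor start does not set these 9 apart.

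Glp1r encodes the GLP-1 receptor, the target of incretin drugs. Its start HMR (chr17:31120338-31124468, 4131 bases, 97 CpGs, exon 1 and part of intron 1) was methylated at 19.2% (95% interval 17.8 to 20.7) and 22.6% (21.0 to 24.2) in the P2 eYFP- and eYFP+ pools and at 2.93% (2.58 to 3.33) and 4.07% (3.62 to 4.58) at P60. The difference was -16.3 points (-17.8 to -14.9, adjusted p = 2.14e-152) in eYFP- and -18.5 points (-20.2 to -16.9, adjusted p = 1.09e-144) in eYFP+ cells by Fisher's exact test. With the reads divided by CpGs, the adjusted p was 0.149 and 0.263 by the same test. That division counts the 97 CpGs as if each fragment spanned all 4131 bases, so it cannot decide whether the call holds. Tested singly, 55 CpGs of the Glp1r locus were lower at P60 in eYFP- and 56 in eYFP+ cells.

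The libraries showed the same HMR as a change of width, within edges set by the pool in which it reaches furthest. The P2 eYFP- libraries called 1957 and 2015 of its 4131 bases and the P2 eYFP+ libraries 2395 and 1458, whereas the 8 P60 libraries called 4057 to 4131 with a median of 4131. The groups did not overlap (1956 ± 385 bases, SD, n = 4, against 4120 ± 25.9, n = 8), and the exact permutation p of 0.00404 is the smallest that 4 against 8 libraries can give (adjusted p = 0.0222). In bins of 500 bases, the first 500 bases after the start were at 0.846% and 1.05% at P2 and at 0.343% and 0.354% at P60. Further into intron 1 the stages parted: bases 1000 to 1499 went from 39.9% and 39.7% to 4.75% and 5.11%, and bases 3500 to 3999 from 66.3% and 59.4% to 11.8% and 14.2%. The lower level at P60 extended beyond the HMR, with 81.7% and 86.5% against 57.1% and 55.6% at bases 5500 to 5999 and 65.2% and 70.2% against 35.8% and 38.9% at bases 9500 to 9999. By contrast, the bin 501 to 1000 bases upstream of the start was at 71.6% to 73.8% in all 4 pools.

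**Figure D2:**
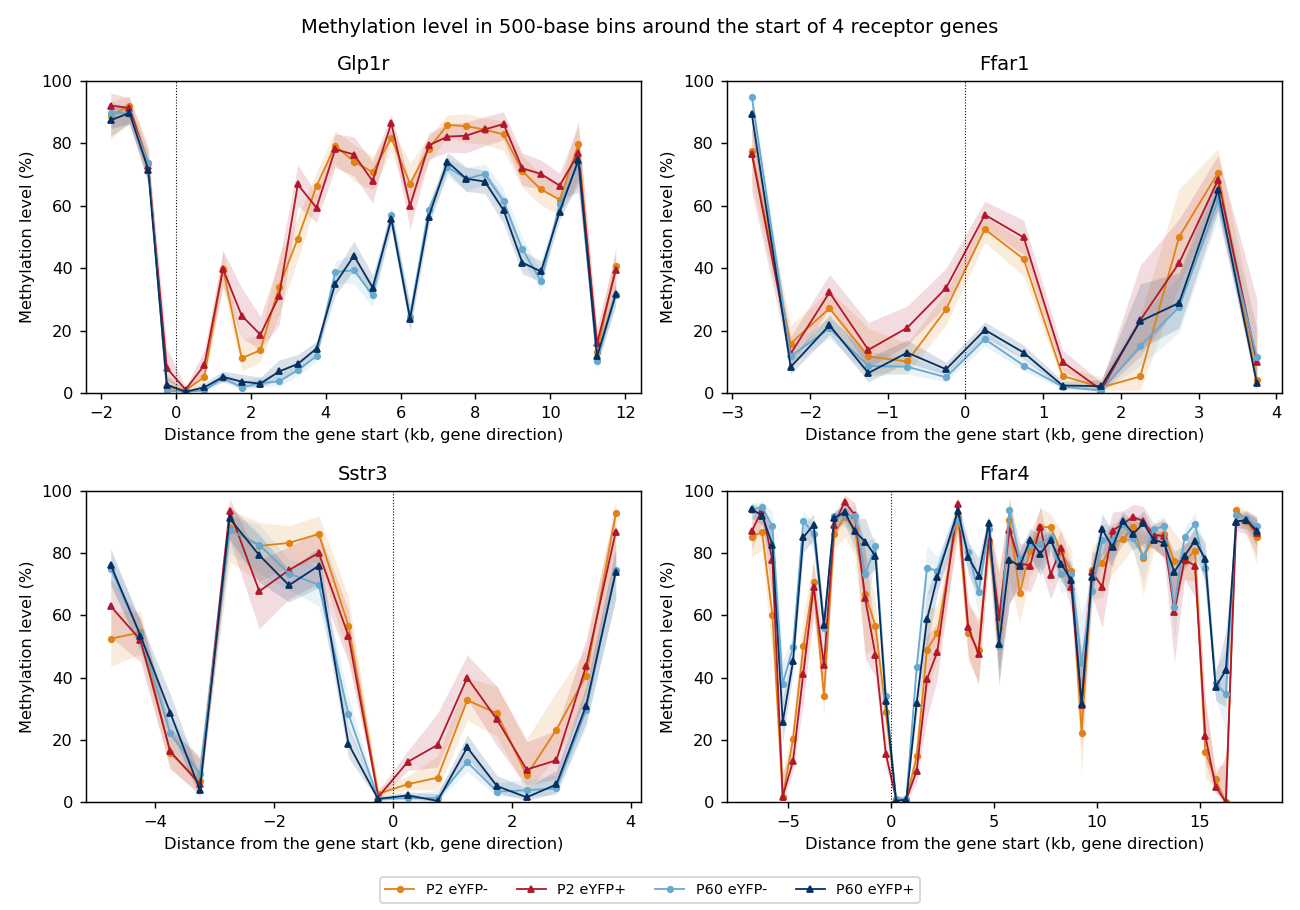
Methylation level, in percent, in bins of 500 bases against the distance from the gene start in kb, for Glp1r, Ffar1, Sstr3 and Ffar4 in the 4 pools, with shaded 95% Wilson intervals. At Glp1r the P60 lines lie below the P2 lines over the first 10 kb of the gene, at Ffar1 and Sstr3 around the start, and at Ffar4 the P60 lines lie above the P2 lines upstream and in intron 2 while the start stays near 0 in every pool.

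The intron 1 region printed above lay in an HMR of both P60 pools (402 bases, 6 CpGs) and in none of the P2 pools. Its level went from 58.5% and 56.7% at P2 to 18.8% and 19.5% at P60, a difference of -39.8 points (-46.7 to -32.3) and -37.2 points (-45.0 to -28.9). Each of its 3 CpGs in the printed stretch was lower at P60: the first was at 56.1% and 67.7% at P2 and at 12.7% and 9.52% at P60, and the third, at base 68, at 87.1% and 88.9% and then at 41.7% and 45.1%. No single library called an HMR here, so the region was seen only in the pools. In the intron 3 region (161 bases, 5 CpGs) the level went from 50.6% and 62.0% to 15.8% and 11.2%, a difference of -34.8 points (-42.9 to -26.6) and -50.8 points (-58.2 to -42.7), and only the P60 eYFP+ pool and 1 of the 12 libraries, a P60 eYFP- one, called an HMR. An HMR near the far edge of the flank, 9501 bases upstream of the start, was also lower at P60, at 32.9% in both P2 pools and at 18.0% and 20.8% at P60. It was called in 0 of 4 P2 and 4 of 8 P60 libraries. The remaining Glp1r HMRs inside the gene did not pass the test and were at 5.56% to 15.6% in every pool, and of those downstream of it 1 was lower and 1 higher in eYFP+ cells only.

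Ffar1, the main long-chain fatty acid receptor of b cells, is a gene of 1 exon. Its start HMR (chr7:30558478-30562206, 3729 bases, 78 CpGs) covers the start and most of the gene and was at 28.2% (26.2 to 30.3) and 32.5% (30.4 to 34.7) at P2 and at 8.54% (7.75 to 9.40) and 11.1% (10.2 to 12.1) at P60. The difference was -19.7 points (-21.9 to -17.5) in eYFP- and -21.4 points (-23.7 to -19.1) in eYFP+ cells, with adjusted p of 5.42e-82 and 4.99e-81 by Fisher's exact test, and 0.408 and 0.359 with the reads divided by CpGs. The P2 libraries called 2639 and 2468 bases in eYFP- and 2022 and 2348 in eYFP+ cells, and the P60 libraries 3031 to 3729 with a median of 3507. The groups did not overlap (2369 ± 260 bases, n = 4, against 3469 ± 273, n = 8, exact permutation adjusted p = 0.0222).

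Ffar1 differed from Glp1r in where methylation was lost. At Glp1r the start was free of methylation at both stages, whereas at Ffar1 the first 500 bases after the start were at 52.5% and 57.1% at P2 and at 17.2% and 20.2% at P60. Bases 1500 to 1999 of the gene were at 0.930% to 2.16% in all 4 pools. In the 300 bases upstream of the start, printed above, the first CpG was at 63.3% in both P2 pools and at 8.22% and 18.5% at P60, and the second, at base 26, went from 75.0% and 74.1% to 12.3% and 16.1%. Of the other CpGs of that stretch, those covered in every pool were at 26.9% or less at P2. A second HMR 1703 bases upstream of the start did not pass the minimum difference, at 10.7% and 9.19% and then 6.95% and 4.89%.

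Sstr3, a somatostatin receptor, showed the same direction at its start and the opposite one upstream. The start HMR (4115 bases, exons 1 and 2) was at 15.0% and 17.8% at P2 and at 5.16% and 5.62% at P60, a difference of -9.81 points (-11.8 to -7.94) in eYFP- cells, just short of the 10 points asked for, and of -12.2 points (-14.3 to -10.2) in eYFP+ cells. The P2 libraries called 2827 and 3872 bases in eYFP- and 2684 and 3441 in eYFP+ cells, and the P60 libraries 4020 to 4115 with a median of 4050. The libraries of the stages did not overlap (3206 ± 552 against 4065 ± 45.0 bases, adjusted p = 0.0222, exact permutation test). The HMR 3139 bases upstream of the start was overlapped in 4 of 4 P2 and in 0 of 8 P60 libraries, with 772 and 964 bases in the eYFP- and 772 bases in each of the eYFP+ libraries at P2. Its level in the pools differed by less than the minimum, at 14.8% and 17.1% and then 21.6% and 24.2%, and both P60 pools still held an HMR there.

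Ffar4, the second receptor for long-chain fatty acids, moved in the direction opposite to Ffar1. Its start HMR was low in every pool, at 2.38% and 1.98% at P2 and 5.41% and 4.18% at P60, but it was narrower at P60. The libraries called 1663 and 1557 bases in eYFP- and 1663 in each eYFP+ library at P2, and 1153 to 1295 bases at P60 (1636 ± 53.0 against 1250 ± 64.7, adjusted p = 0.0222, exact permutation test). The HMR upstream of the gene (chr19:38079968-38080964, 997 bases, 13 CpGs, 4343 bases from the start) was at 17.4% and 12.4% at P2 and at 50.2% and 44.5% at P60, a difference of 32.8 points (27.5 to 37.6) and 32.1 points (27.4 to 36.4). The HMR in intron 2 (chr19:38100555-38101354, 800 bases, 11 CpGs) was at 7.77% and 7.97% at P2 and at 47.6% and 48.1% at P60, a difference of 39.8 points (34.6 to 44.5) and 40.1 points (34.8 to 44.7).

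Both of these Ffar4 regions were HMRs of every P2 library and of no P60 library. Upstream, the eYFP- libraries of P2 called 762 and 997 bases and each eYFP+ library 997, and in intron 2 all 4 called 800 bases. In the printed intron 2 stretch, the fourth CpG, at base 73, went from 6.67% and 12.5% to 66.7% and 72.3%, and the third, at base 59, went from 2.50% and 10.3% to 51.7% and 47.1%. In the printed upstream stretch the level of each of the 8 CpGs was higher at P60 in both subtypes, with 17.2% to 81.7% in eYFP- cells at P60 and at most 45.2% at P2. Levels were thus uneven within each region, with neighbouring CpGs far apart in the same pool.

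Of the 43 receptor HMRs that any library overlapped, 3 were present in fewer P60 than P2 libraries (both Ffar4 regions and the Sstr3 upstream region, Fisher's exact test, p = 0.00202, the smallest that 4 against 8 libraries allow, adjusted p = 0.0320) and 0 in more, with 6.24% and 0.0742% of all merged HMRs called so. Without any 1 of the P2 libraries, including those whose sex label was in doubt, the count was 0, since the remaining design is too small to pass. Counted as covered bases, 7 receptor HMRs had fewer and 4 had more bases at P60 by the exact permutation test, with backgrounds of 19.5% and 0.625%. The 4 with more bases were the start HMRs of Glp1r, Ffar1, Sstr3 and Chrm3. This test by bases was chosen after the data had been seen, and it counts bases within edges that the pools set.

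**Figure D3:**
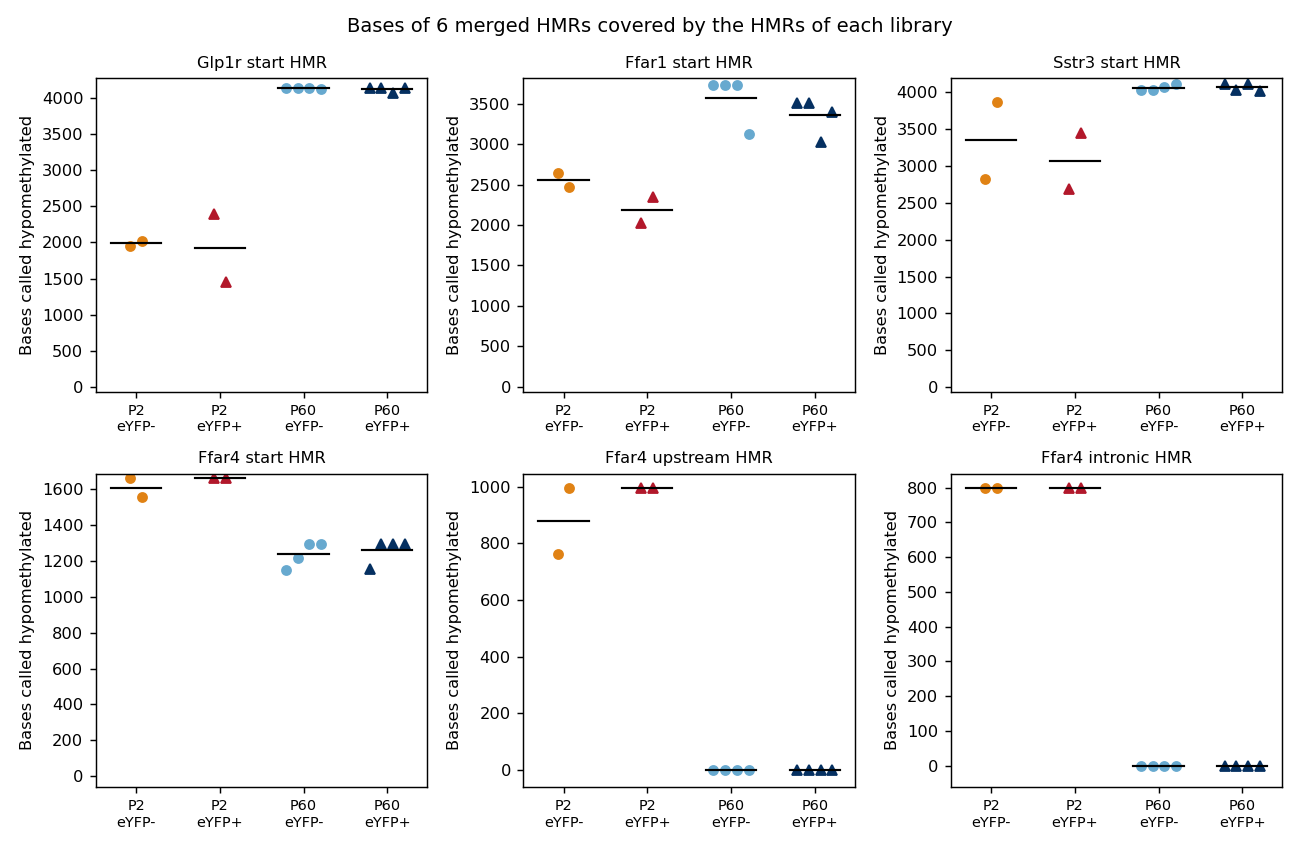
Number of bases of 6 merged HMRs that the HMRs of each library cover, 1 point per library (circles eYFP-, triangles eYFP+) with the mean of each group as a black line. The P60 points lie above all P2 points at the starts of Glp1r, Ffar1 and Sstr3 and below all P2 points in the 3 Ffar4 regions, where the upstream and intronic HMRs are at 0 in all 8 P60 libraries.

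Further gains lay in the loci of Gipr, Gcgr, Ffar1, Chrm3 and Galr1. The one at Ffar1 was an HMR of 515 bases that lies 13580 bases from its start, beyond the gene's end, and was at 14.6% and 23.5% at P2 and at 30.6% and 30.8% at P60. It was called higher in eYFP- cells only (15.9 points, 8.34 to 22.5), and in eYFP+ cells the difference was 7.36 points (-2.38 to 15.9). Gipr encodes the GIP receptor. The Gipr HMR over exons 8 to 12 (1181 bases, 53 CpGs) went from 13.1% and 11.7% at P2 to 27.1% and 27.3% at P60, a difference of 14.0 points (11.6 to 16.3) and 15.5 points (13.1 to 17.8). The P2 libraries called 1181 and 1132 bases in eYFP- and 1181 and 1146 in eYFP+ cells, and the P60 libraries 467 to 682 with a median of 488.5, with no overlap. A short HMR in intron 12 of Gipr was higher in eYFP+ cells only, at 16.4% and 11.2% and then 18.9% and 21.2%. An HMR 3850 bases upstream of the outermost start of Gcgr, the glucagon receptor gene, was higher in eYFP- cells, at 7.43% and 9.60% and then 22.2% and 19.0%.

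In Chrm3, a gene of 485362 bases, the short HMR of 161 bases in intron 3 was higher at P60 in both subtypes (4.62% and 9.58%, then 24.4% and 24.1%), while 6 others inside the gene did not pass the test. In the Galr1 locus an HMR of 186 bases beyond the end of the gene went from 26.9% and 16.3% to 62.3% and 58.4%, a difference of 35.4 points (25.8 to 43.9) and 42.1 points (32.9 to 49.9). It came from the P2 eYFP+ pool alone and was called in no library. An intronic HMR of Galr1 went the other way, from 18.8% to 5.20% in eYFP- cells, and was lower in both subtypes (-13.6 points, -21.2 to -7.42, and -12.2 points, -20.7 to -5.24). The 2 neighbouring starts that passed the test were those of Eml2 near Gipr, at 8.10% and 7.14% and then 22.2% and 17.7%, and of Rbp4 near Ffar4, at 7.59% and 5.67% and then 13.9% and 16.3% (called in eYFP+ cells only).

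The starts of the other receptors were low at both stages. The Chrm3 start HMR went from 6.24% and 6.09% to 1.51% and 2.03% and covered 2515 to 2854 bases in the P2 and 2906 to 2972 in the P60 libraries (adjusted p = 0.0222, exact permutation test). That of Galr1 went from 5.80% and 4.62% to 1.98% and 1.48%. Both differences are smaller than the minimum of 10 points. The Adra2a HMR, the longest of the 49 with 4645 bases and 291 CpGs over both exons, was at 0.956% to 2.15% in every pool. The start HMR of Gipr was at 6.82% to 8.86%. At Gcgr the outermost annotated start lies 7639 bases upstream of the start of the canonical transcript, and the HMR at that canonical start went from 5.71% and 6.10% to 8.74% and 11.2%.

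The share of each locus that lay in HMRs was then compared between the stages over the 12 libraries. It was higher at P60 for Glp1r, with 4.60% and 5.20% in the eYFP- and 5.31% and 3.79% in the eYFP+ libraries of P2 and 8.21% to 9.26% in those of P60 (4.73% ± 0.698 against 8.73% ± 0.389), and for Ffar1, with 15.7%, 13.3%, 11.5% and 12.8% at P2 and 15.9% to 18.5% at P60 (13.3% ± 1.75 against 17.7% ± 0.878). It was lower for Ffar4 (13.8% ± 1.10 against 5.70% ± 0.427), Gipr (27.7% ± 1.23 against 24.0% ± 1.64) and Gcgr (13.0% ± 0.699 against 10.3% ± 1.08). In these 5 loci no P60 library lay within the range of the P2 libraries, and each had p = 0.00404 and an adjusted p of 0.0119 (exact permutation test over 18210 loci, n = 4 and 8). Of all loci, 44.6% were lower and 1.25% higher, with a median difference of -0.62 points. The libraries of P60 held 42.7 to 46.1 Mb of HMRs and those of P2 55.6 to 58.7 Mb. Divided by each library's HMR-covered share of the genome, Glp1r and Ffar1 stayed higher and Ffar4 lower, but Gipr and Gcgr turned to the other sign without passing the test (relative differences of 1.30 and 0.0339), so their direction rests on the scale.

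The shares of Chrm3 (0.861% ± 0.0552 against 0.824% ± 0.114, p = 0.594), Adra2a (24.0% ± 0.739 against 23.6% ± 0.522, p = 0.271), Galr1 (10.3% ± 0.148 against 11.2% ± 0.994, p = 0.121) and Sstr3 (26.9% ± 4.23 against 27.0% ± 1.07, p = 0.929) did not pass the exact permutation test with n = 4 and 8. For Sstr3 this rests on 1 library: the P2 eYFP- library labelled male was at 33.2% and the other 3 P2 libraries at 24.0% to 25.5%. Without it the difference was 2.20 points and was called. Without the other library of doubtful sex label the count of called loci was the same, 3 lower and 2 higher. Relative to the library's own HMR coverage, Adra2a, Galr1 and Sstr3 were all called higher (2.79, 1.87 and 3.49), and Chrm3 was at 0.0867 and not called, so that Adra2a and Chrm3 had the other sign on this scale.

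**Figure D4:**
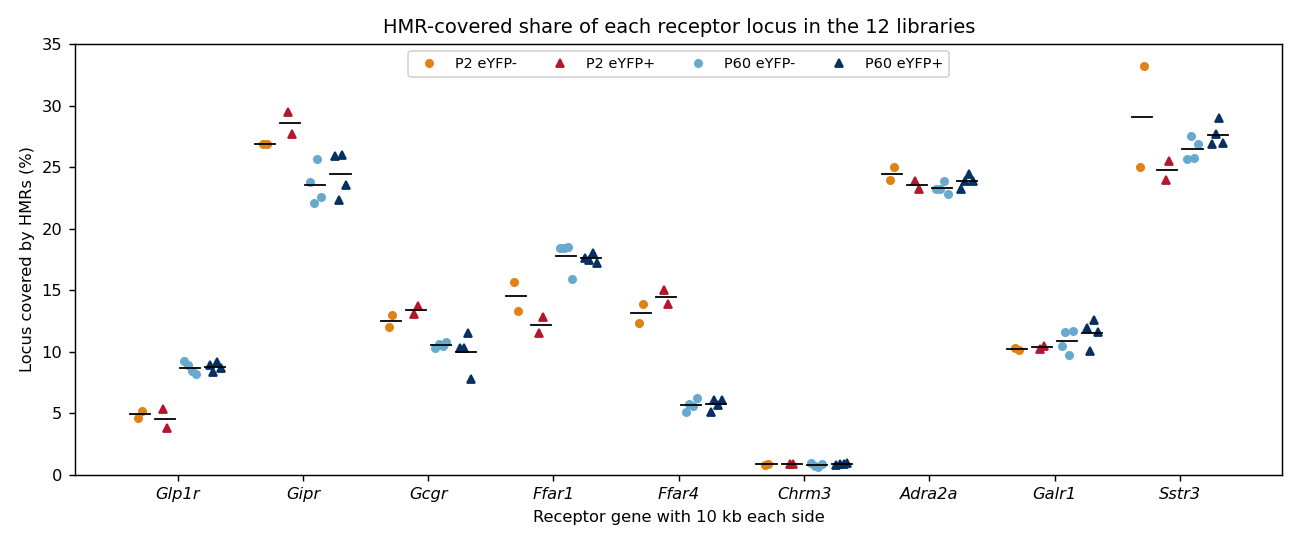
Percent of each receptor locus (gene with 10 kb on each side) that lies in HMRs, 1 point per library (circles eYFP-, triangles eYFP+) with the mean of each group as a black line. The P60 libraries lie above those of P2 at Glp1r and Ffar1 and below them at Ffar4, Gipr and Gcgr, and 1 P2 eYFP- library of Sstr3 stands apart at 33.2%.

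Single CpGs, which were not selected by their level, were tested next, with at least 10 reads in both pools. In eYFP- cells 89 of 6860 CpGs of the receptor loci were lower and 68 higher at P60, and in eYFP+ cells 91 and 70 of 6864 (Fisher's exact test, adjusted over all CpGs of the genome). Over the genome 0.0657% and 0.658% were called lower and higher in eYFP- cells, and 0.104% and 0.619% in eYFP+ cells. Glp1r held 55 and 56 of the lower CpGs with 0 and 1 higher, and Ffar1 held 21 and 19. Ffar4 held 33 and 34 of the higher CpGs with 0 lower in either subtype. The long Chrm3 locus had 7 and 6 lower and 14 and 19 higher of 2771 and 2786 tested, and the other 5 loci had 0 to 6 lower and 0 to 9 higher each.

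In windows of 500 bases on either side of the outermost start, the 9 receptors spanned nearly the whole range of levels. In P2 eYFP- cells the order from low to high was Glp1r (0.924%), Chrm3 (1.05%), Sstr3 (4.38%), Ffar4 (5.61%), Galr1 (9.03%), Gipr (13.7%), Adra2a (36.8%), Ffar1 (44.0%) and Gcgr (75.9%). The 95% intervals of Glp1r and Chrm3, of Sstr3 and Ffar4, of Galr1 and Gipr, and of Adra2a and Ffar1 overlapped, which does not by itself show that their levels were alike. In P60 eYFP- cells Ffar1 (12.7%) had moved below Adra2a (31.6%) to stand beside Gipr (11.4%), whose interval it overlapped. Gcgr stayed highest, at 69.6% to 75.9% in the 4 pools, since its outermost start lies outside the HMR of the canonical start.

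Of the 9 windows, Ffar1 was called lower at P60 in both subtypes (-31.3 and -34.4 points, adjusted p = 4.48e-61 and 1.03e-62 by Fisher's exact test) and Adra2a in eYFP+ cells only (from 44.6% to 29.2%, adjusted p = 4.18e-10), and none was higher. Over all windows, 2.06% and 3.58% were called lower in eYFP- and eYFP+ cells and 4.42% and 4.29% higher. For Adra2a the call did not hold around its canonical start, 915 bases into the gene (-0.62 points), where the HMR lies. For Ffar1 a narrower window, 250 bases before to 50 after the start, differed by -4.83 points in eYFP- cells, and the pair of CpGs at 63.3% and more at P2 lies outside it.

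The receptor gene whose window levels were nearest over the 4 pools, by Euclidean distance in percentage points, was Vipr1 for Glp1r (1.07) and for Chrm3 (1.04), Npy1r for Ffar4 (1.84), Kiss1r for Gipr (2.51), Chrm2 for Galr1 (2.83), Oprk1 for Sstr3 (4.65), Glp2r for Gcgr (10.2), Galr3 for Ffar1 (12.1) and Adra2a was nearest to Gpr119 (12.3). The last 3 distances are large, so that no receptor of the lists was close to Gcgr, Ffar1 or Adra2a.

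Subtypes differed far less than stages. None of the 49 receptor HMRs was called between eYFP+ and eYFP- cells at P2 or at P60 (Fisher's exact test), where 12 and 10 had an unadjusted p below 0.05, and 1.38% and 0.824% of all merged HMRs were called. The differences, eYFP+ minus eYFP-, ran from -10.6 to 11.4 points at P2 and from -5.61 to 2.77 points at P60, with median sizes of 1.91 and 1.203 points against 2.17 and 1.69 points over all merged HMRs. The 95% interval lay within 10 points either way for 36 of the 49 at P2 and for 46 at P60, and in the remaining 13 and 3 the interval reached beyond 10 points. The largest at P2 was the Glp1r intron 3 region, with 50.6% in eYFP- and 62.0% in eYFP+ cells (11.4 points, 1.02 to 21.5).

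At receptor starts the subtype intervals were narrow. The Glp1r start HMR was 3.36 points higher in eYFP+ cells at P2 (1.21 to 5.52) and 1.14 points higher at P60 (0.539 to 1.76), and the Ffar1 start HMR 4.31 points (1.38 to 7.24) and 2.58 points (1.33 to 3.85). With no minimum difference, 0 of the 49 passed at P2 and 5 at P60, against 2.43% and 2.18% of all merged HMRs. Both of these starts were among the 5 (adjusted p = 0.0196 and 0.0087, Fisher's exact test on pools). With the reads divided by CpGs, their unadjusted p at P60 was 0.661 and 0.758 by the same test. The calls of these starts therefore rest on how reads of neighbouring CpGs are counted. The others of the 5 were the canonical start of Gcgr (2.42 points at P60) and the starts of the neighbouring genes Rbp4 (2.41 points) and Eml2 (-4.52 points). The Eml2 difference was the largest of the 5 in size and the only one that was lower in eYFP+ cells. The stage difference itself differed between the subtypes at 1 of the 49 by a z test on the proportions of the pools, and 10 had an unadjusted p below 0.05. Of all 87077 merged HMRs tested, 1.78% were called so and 12067 had an unadjusted p below 0.05. The region called was the Rbp4 start beside Ffar4, where the gain was 4.33 points larger in eYFP+ cells (adjusted p = 0.00332, from this z test and not from an exact one). This test was chosen after the data had been seen.

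**Figure D5:**
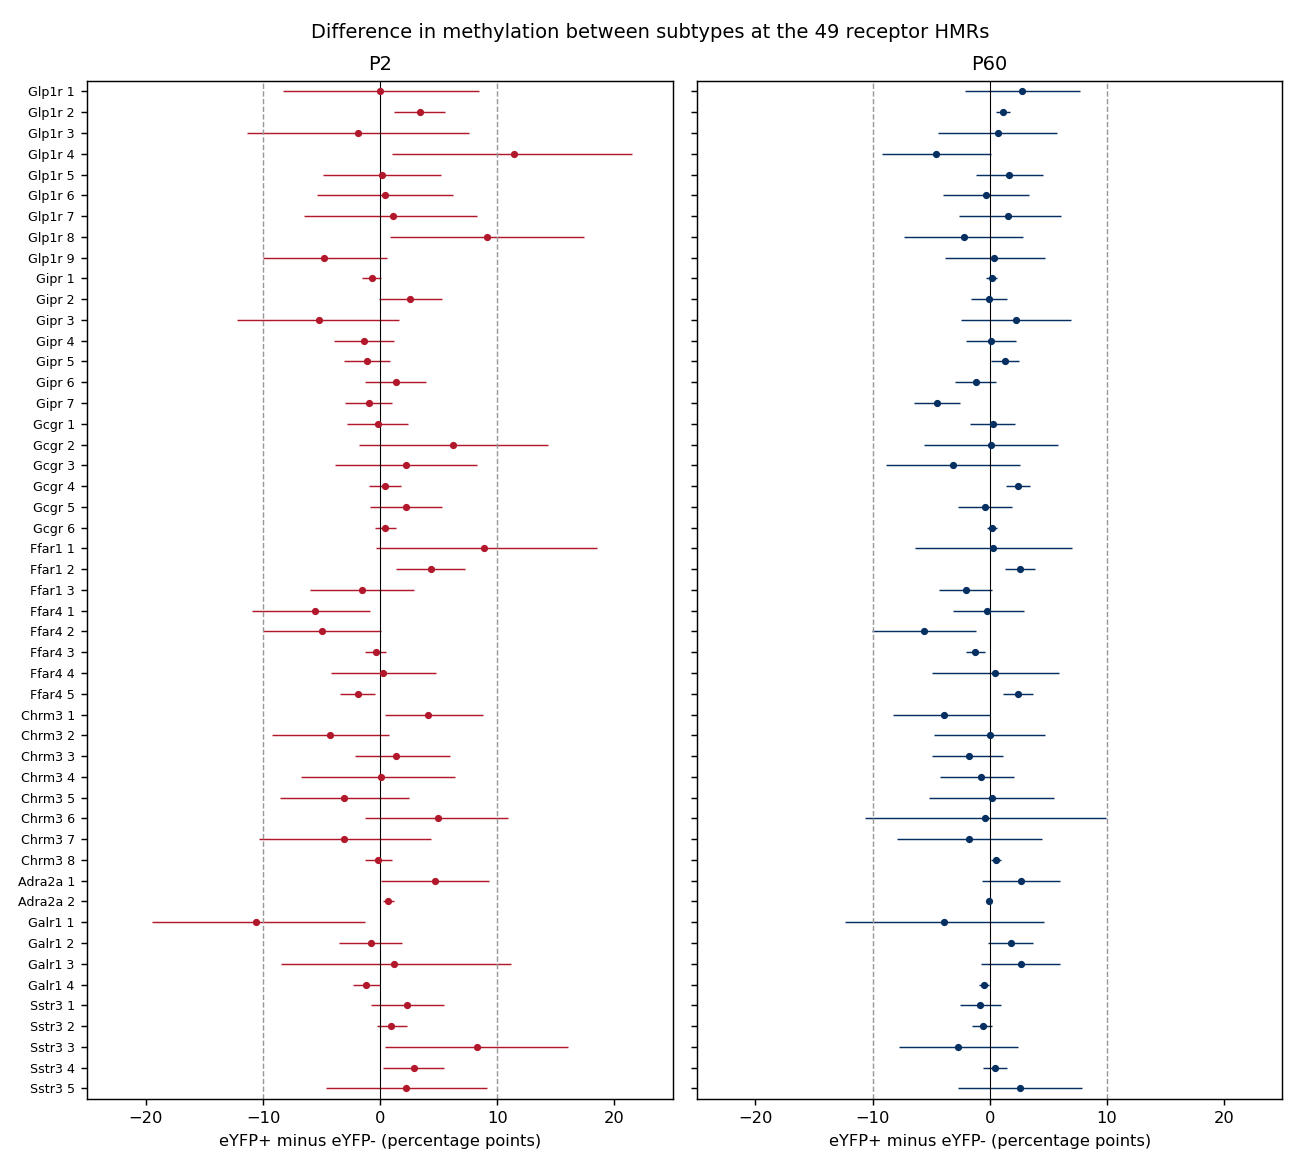
Difference in methylation between eYFP+ and eYFP- pools, in percentage points, for the 49 receptor HMRs at P2 and P60, with 95% Newcombe intervals (counting error only). Dashed lines mark 10 points either way. Intervals are narrower at P60, where 46 of 49 lie within the lines, than at P2, where 36 do.

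The libraries and single CpGs gave no subtype call in these loci either. At P60 the HMR-covered share of 0 of the 9 loci and of 0 of all 18210 loci was called by the exact permutation test with 4 against 4 libraries, and 126 loci lower and 187 higher had an unadjusted p below 0.05. The largest difference among the receptors was 1.16 points at Sstr3 (26.4% ± 0.903 in eYFP- against 27.6% ± 0.991 in eYFP+, exact permutation p = 0.143, and 0.125 with the replicate number as a block, the smallest that 4 pairs allow). At P2, 2 against 2 libraries cannot give an exact permutation p below 0.333. Of single CpGs in the loci, 0 of 6871 at P2 and 0 of 6920 at P60 were called, with 186 and 215 at an unadjusted p below 0.05 (Fisher's exact test). Over the whole genome this test called only 2 of 19161833 CpGs at P2 and 1 of 19794121 at P60.

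The promoter windows of the pathways around these receptors moved in part. As a background for the counts in these lists, 2.06% and 3.58% of all windows were called lower in eYFP- and eYFP+ cells. Called higher were 4.42% and 4.29%. Among 29 other receptors of the same families, Galr3, another galanin receptor, was lower at P60 (45.2% and 49.4%, then 22.1% and 22.8%), while Ffar2, a short-chain fatty acid receptor, was higher (68.2% and 67.7%, then 86.9% and 83.0%) and Sstr1 was higher in eYFP- cells only (9.22% and 10.1%, then 21.5% and 18.9%). Among 16 other islet receptors 3 were higher in both subtypes and 0 lower. They were Cnr1, a cannabinoid receptor (41.7% and 43.3%, then 83.0% and 78.2%), Cckar, which binds cholecystokinin (18.5% and 21.2%, then 53.1% and 53.9%), and Htr1d, a serotonin receptor (47.9% and 48.8%, then 65.4% and 59.8%).

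Downstream of the receptors most windows were low at both stages. Of 30 genes of the Gs and cAMP pathway 0 were called in eYFP- cells and 1 in eYFP+ cells, Pde3b, a phosphodiesterase that breaks down cAMP (10.8% and 15.8%, then 6.25% and 5.42%), and the list median was 2.20% to 3.10% in the 4 pools. Of 16 genes of the Gq and phospholipase C pathway 3 were higher in both subtypes, Trpm4, a cation channel opened by calcium (36.2% and 40.7%, then 66.2% and 64.4%), the diacylglycerol kinase gene Dgkb (58.6% and 65.5%, then 83.3% and 79.4%) and the phospholipase gene Plcb2 (39.5% and 35.9%, then 51.6% and 47.4%). Of 15 genes of the Gi/o pathway 0 were called in either subtype, and the one with the largest difference was Gnb1, at 40.6% and 37.1% and then 33.5% and 33.7%.

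Of 14 genes for the ligands and their processing 1 was lower and 3 were higher in both subtypes. The lower one was Pcsk1, a convertase that cuts proinsulin and other prohormones (26.1% and 27.2%, then 14.0% and 13.2%). The higher ones were Pyy, a gut and islet peptide (42.7% and 41.3%, then 68.7% and 59.8%), Chat, which makes acetylcholine (33.2% and 31.0%, then 52.3% and 51.5%), and Gip (51.9% and 51.7%, then 64.6% and 62.2%). The median stage differences of these 6 lists were -0.07 to 2.10 points in the 2 subtypes together, against -0.05 and -0.23 points over all windows.

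Marker windows were read to check what the pools hold. Those of the b cell factors Pdx1, Nkx6-1 and Mafa were at 0.454% to 1.29% and that of Iapp at 0.323% to 4.85% in every pool. The Ins1 window was lower at P60 (28.3% and 35.1%, then 7.87% and 5.74%), and the windows of Ins2 and G6pc2 were at 69.0% to 85.0% throughout. Those of Slc2a2, Slc30a8 and Ucn3 were at 5.502% to 23.05%. Among other cell types, the list medians were 76.2% to 81.9% for 4 acinar genes, 63.3% to 79.9% for 3 duct, 52.1% to 63.2% for 3 endothelial, 71.1% to 75.8% for 4 immune and 34.3% to 43.4% for 3 stromal genes. The medians were lower for 5 a cell genes (15.7% to 22.6%, with Irx1 and Irx2 at 0.690% to 2.18%) and 3 d cell genes (7.43% to 15.4%), and the windows of 0 of these 8 were called between stages. Rbp4 is among the 3 d cell genes. Its window was not called, but its wider start HMR was higher at P60 in eYFP+ cells (5.67%, then 16.3%). The median of the 10 b cell genes was 5.62% to 10.53%, a range that overlaps that of the d cell genes. It was above the d cell median in the P2 eYFP+ pool (10.53% against 7.43%) and below it in each other pool. These medians therefore do not set b cells apart from d cells. Of the acinar genes 2 were higher at P60 in eYFP+ cells, and of the other lists 2 duct genes (1 in each subtype), 1 endothelial and 1 immune gene were higher in at least 1 subtype, while 1 stromal gene was lower in eYFP- cells. Whether the mix of cells in the pools had a part in the stage differences of the receptors was not tested.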

How the data were processed

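The authors trimmed the reads (Trim Galore 0.6.6, cutadapt 1.16, SAMtools 1.5 and FastQC per the labels' processing notes) and aligned them to mm39 by abismal, and MethPipe served for counting and for HMR calls. Versions of abismal and MethPipe are not given in the sources used here. The deposited tables hold counts of methylated and unmethylated reads at each CpG for 1 pool per subtype and stage, strands merged. Deposited HMR lists were used as positions. A deposited score column and lists of candidate differentially methylated regions hold the authors' own comparisons and were not used. Pool B1 was taken as eYFP-, since the directions of the gated regions then match the study's text. All listed positions were CG in GRCm39, whose annotation was used.

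Fisher's exact test (two-sided) was applied to the summed reads of 2 pools, with Benjamini-Hochberg adjustment over all merged HMRs, CpGs or promoter windows (at least 3 CpGs and 30 reads). Libraries, each of pooled mice, were compared by Fisher's exact test on presence and by two-sided exact permutation tests. The main subtype tests over P60 libraries were unpaired. P60 replicate numbers share a sex label and a submission, and deviations from the subtype mean correlated at 0.140 to 0.309 in every pair. The replicate number was therefore also used as a block in an alternative test.

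The receptors, gene lists and tests were chosen with earlier results of these data known. Regions named by rule are those at a receptor start and up to 3 further called ones per locus, and genes up to 3 per list, with the largest difference. Others were named after their values were seen. Python 3.11.15, numpy 2.4.6, pandas 2.3.3, scipy 1.17.1, numba 0.67.0 and pysam 0.24.0 were used, and the tests were tried on simulated data.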

Additional observations from a re-analysis of the deposited data

Results flagged for a closer look

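In 11 of the 43 sets of 4 P60 libraries tested, 1 library stood apart from the other 3 by Dixon's criterion. Chance flags about 1 in 20 such sets, and many of these sets hold ties, where 1 differing library is enough. The locus coverage of Ffar1 was 15.9% in 1 eYFP- library and 18.4% to 18.5% in the others, which goes with its start HMR, at 3124 bases against 3729. The Glp1r start HMR had 4118 bases in 1 eYFP- library and 4057 in 1 eYFP+ library, against 4131 in all others. The Glp1r intron 3 HMR was called in 1 eYFP- library, with 161 bases, and in none of the others. Among the eYFP+ libraries, 1 stood apart at the starts of Gipr (2254 bases, others 2455 to 2488), Ffar4 (1157, others 1295), Chrm3 (2906, others 2972) and Galr1 (2401, others 2826), at the Rbp4 start (963, others 883 to 893) and at the intronic HMR of Galr1 that was lower at P60 (300 bases, others 244). In each of the stage comparisons by bases that were called, at the starts of Glp1r, Ffar1, Ffar4, Chrm3 and Rbp4, these libraries remained on the P60 side of all P2 libraries.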

How the results depend on the processing

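With a minimum of 20 points, 2 receptor HMRs were lower and 3 higher in eYFP- and 3 and 3 in eYFP+ cells. With no minimum, 13 were lower and 15 higher in eYFP- cells, 17 lower in eYFP+ cells, and 5 differed between the P60 subtypes. Dividing reads by CpGs left 2 lower and 1 higher in each subtype, and over all merged HMRs 35 lower and 1097 higher of 86551 in eYFP- cells. With only the parts shared by both pools of a stage, 5 were lower in eYFP+ cells. With flanks of 2 kb, 4 and 5 HMRs and 39 of 5165 and 46 of 5168 CpGs were higher, and with 50 kb, 29 and 32 HMRs. The flank does not change the shares over all merged HMRs (27.4% and 26.1% higher). The number of HMRs in these flanks was not recorded, so those counts have no share. For the 20-point minimum, the stage calls with no minimum and the shared parts, shares over all merged HMRs were not computed. Receptor HMRs in fewer P60 libraries were 0 with only P60 replicates 1 and 2 or only 3 and 4, 0 to 3 with any 1 library left out (0 without any P2 library), and 7 by covered bases, where 4 had more bases. With 1 library left out, 3 loci stayed lower and 2 to 3 were higher in coverage, and without P2 eYFP- replicate 2 the Sstr3 difference was 2.20 points and called. Divided by the library's HMR share, 1 locus was lower and 5 higher, and Gipr (1.30), Gcgr (0.0339), Adra2a (2.79) and Chrm3 (0.0867) changed sign. Windows from 250 bases before to 50 after the start gave 0 lower receptors in eYFP- and 1 in eYFP+ cells, and canonical starts 1 in eYFP+ cells. The Adra2a window was then at -8.79 and -0.62 points, and at -8.14 points with 1000 bases either side, where Sstr3 was called at -10.8 points. The causes of these changes were not tested. Of the other values, 150 counts stayed within 1.5 times and 394 single values kept their side of the threshold, of which 37 values that were not called changed sign.

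With the replicate number as a block at P60, 0 receptor loci were called between subtypes. The smallest p of 4 pairs is 0.125, so this fit cannot pass the threshold, and Gipr and Sstr3 reached it, with differences of 0.932 and 1.16 points. The replicate block changed no call. At P2 the numbers did not pair (correlation 0.0142). Short HMRs with few CpGs had wide intervals at P2. Whether depth affected which HMRs were called was not tested.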

Other observations

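The share of receptor HMRs that were higher in eYFP+ than in eYFP- cells, whatever the size of the difference, was 28 of 49 at P2 and 26 of 49 at P60, against 53.9% and 47.1% of all merged HMRs. Inside Chrm3, 3 short HMRs of 129 to 178 bases were at 5.91% or less in every pool, although they were called in 0 of 4 P2 libraries and in 1, 3 and 0 of the 8 P60 libraries.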
